A study of Bos taurus with 18 samples.

Results

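Clones C and O are 2 of the 17 clonal bovine mesenchymal stem cell (MSC) populations sequenced in this series of 18 libraries. The pair was chosen by the similarity of their expression values over all genes, in which they are nearer to each other than to any other clone, so that closeness is described here without a test. Every clone was grown from 1 bone marrow-derived cell of the same donor, expanded in monolayer on tissue culture plastic in basal medium (DMEM with FBS and antibiotics), and sampled at passage 1 before any chondrogenic induction. The comparison is 1 library against 1 library, with the other 15 clones as the surroundings, and the 1 heterogeneous (mixed-population) library is used only where it is named. The remaining cells of the clones were later formed into pellets and assayed for glycosaminoglycan per DNA, which is not analysed here.

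MSCs are stromal cells of the marrow that can be driven towards cartilage, bone or fat. Under TGFβ they build a matrix in which aggrecan, a core protein laden with chondroitin sulfate, is held in a network of type II collagen. Aggrecan is widely used as a marker of that fate, and the study asked whether expression in undifferentiated clones foretells how much matrix a clone will deposit. A pair of clones that differ little across the transcriptome shows which genes can still separate libraries of near-identical expression.

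Clone C had 14133626 reads on genes and clone O had 15727363, within the range of the clones (11484812 to 18458157). Reads outside genes made up 20.8% of the library of clone C and 21.2% of that of clone O, against 18.8% to 26.8% over the clones. Levels are given as CPM, the counts per 1000000 reads on genes after TMM scaling of the library sizes. A count of 0 allows up to 0.203 CPM in clone C and 0.181 CPM in clone O, taking 3 reads as the limit. Fold changes between the clones carry an exact counting interval, set to miss the true ratio of reads in at most 1 case in 1000, which covers counting error only. No library was repeated, so the spread added by culture, RNA preparation and sequencing has no measure here, and no p-value is given.

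The labelled cell type was checked against its markers. Of 24 stromal genes, 20 reached 20 reads over the pair and 1 had 0 reads in both. NT5E (485 CPM in clone C and 501 in clone O), ENG (213 and 200) and CD44 (324 and 313) were among those well detected in both libraries. Stromal markers did not all agree within the pair. Of 20 tested, 10 differed beyond counting error (50%, against 5.62% of all genes), 8 higher in clone C and 2 in clone O. With at least 1000 reads these were 9 of 17, against 11.6% of all such genes. Lists of markers of other cells held 0 to 5 tested genes each, and EGFL7 was the only gene of these lists called between the clones. Of 22 macrophage genes, 5 reached 20 reads over the pair and 7 had 0 reads in both. The list summed to 24.7 CPM in clone C and 22.5 CPM in clone O, against 15.3 to 92.0 CPM in the other clones (median 37.6). PTPRC, which marks blood cells in general, had 0 reads in clone C and 2 in clone O. Of 15 endothelial genes 8 had 0 reads in both, among them CDH5 and KDR, yet the list summed to 47.9 and 50.5 CPM against a median of 46.9 CPM in the other clones. ERG, a transcription factor, made up most of that sum (40.1 and 44.0 CPM), and FLT1, a receptor for VEGF, was above all other clones on 19 and 16 reads. The skeletal muscle list summed to 403 CPM in both clones against a median of 283, most of it from desmin (DES). The epithelial and neural list summed to 108 and 115 CPM against a median of 58.3, most of it from S100B. The erythroid and lymphoid lists held 0 tested genes.

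The libraries of clones C and O were close to each other and to no other library in the same degree. Between them, 2 of 10893 genes with at least 20 reads (0.0184%) were at least 2-fold apart with a counting interval that excluded 1. By the same rule, clone C differed from each of the other 15 clones in 388 to 2126 genes (median 1385), and clone O in 437 to 2237 (median 1680). Clone G was the nearest of the others to both. Clones C and O did not agree within counting error, however. For the 9545 genes with at least 100 reads over the pair, the squared difference divided by its counting variance averaged 5.48 per gene (median 1.06). Counting error alone gives an average of 1 and a median below 1. Against the other clones this average lay between 42.6 and 264 for clone C and between 54.8 and 322 for clone O. Clones C and O are counted as 2 libraries here, as the labels give them. Separate colonies and separate preparations of the same cells cannot be told apart from such an excess, and whether the libraries share cells was not tested.

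**Figure D1:**
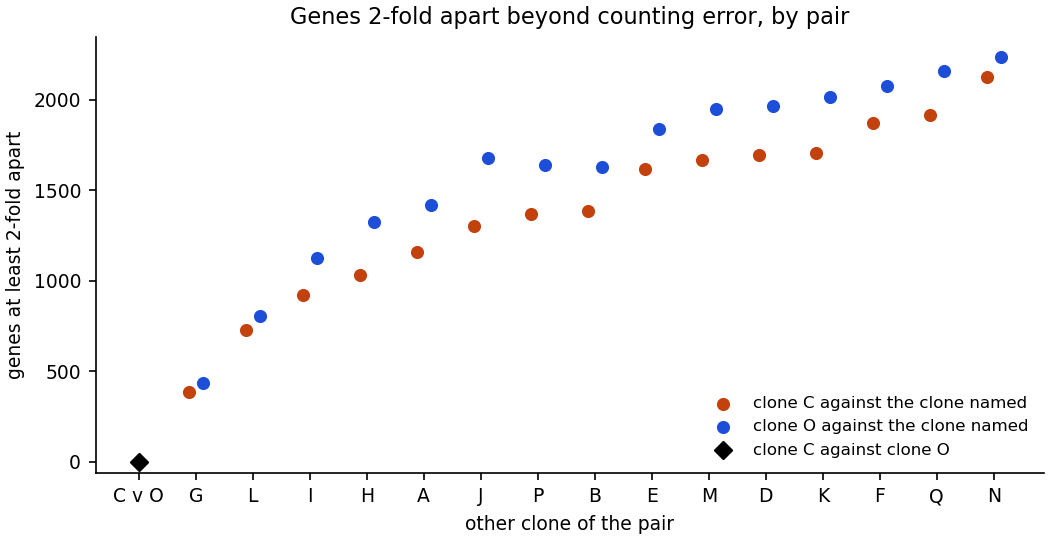
Number of genes at least 2-fold apart beyond counting error (y axis) for clone C against clone O (black diamond) and for clone C (orange) or clone O (blue) against each of the other 15 clones (x axis, ordered by the count against clone C). The pair sits at 2 genes, and the lowest count for any other pair shown is 388, for clone C against clone G.

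Both genes that were 2-fold apart were higher in clone C and had few reads. EGFL7, a secreted protein best known from endothelial cells, had 23 reads in clone C and 6 in clone O, a 4.30-fold difference (interval 1.02 to 30.1). Its level of 1.56 CPM in clone C lay inside the range of the other clones (0.371 to 3.75 CPM), while the 0.362 CPM of clone O lay below all of them. KALRN, a guanine nucleotide exchange factor, had 67 and 37 reads and was 2.03-fold higher in clone C (interval 1.03 to 4.18). KALRN was the gene just inside the limit of 2-fold. FAM192A was the nearest outside it, 1.82-fold higher in clone O with 65 and 133 reads. No gene had 0 reads in the library of either clone and at least 20 in the other, and where a gene had 0 reads in only 1 of them, the other held at most 7.

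Without a minimum fold, 612 of 10893 genes (5.62%) had an interval that excluded 1, 296 higher in clone C (2.72%) and 316 higher in clone O (2.90%). These differences were small. The median was 1.17-fold among genes higher in clone C and 1.13-fold among those higher in clone O, and 6 and 4 genes reached 1.5-fold. Depth set which genes could be called. Among genes with 20 to under 100 reads over the pair 1 of 1348, EGFL7, was beyond counting error (0.074%). That share is below the 1 in 1000 that the interval allows, so EGFL7 cannot be told from counting error. Among genes with 100 to under 1000 reads 1.36% were beyond counting error, among those with 1000 to under 10000 reads 8.61%, and among the 422 genes with at least 10000 reads 41.7%. Of the genes with at least 1000 reads, 545 of 4707 (11.6%) were called. Counts for gene lists over all tested members stand against 5.62%, and those over members with at least 1000 reads against 11.6%.

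**Figure D2:**
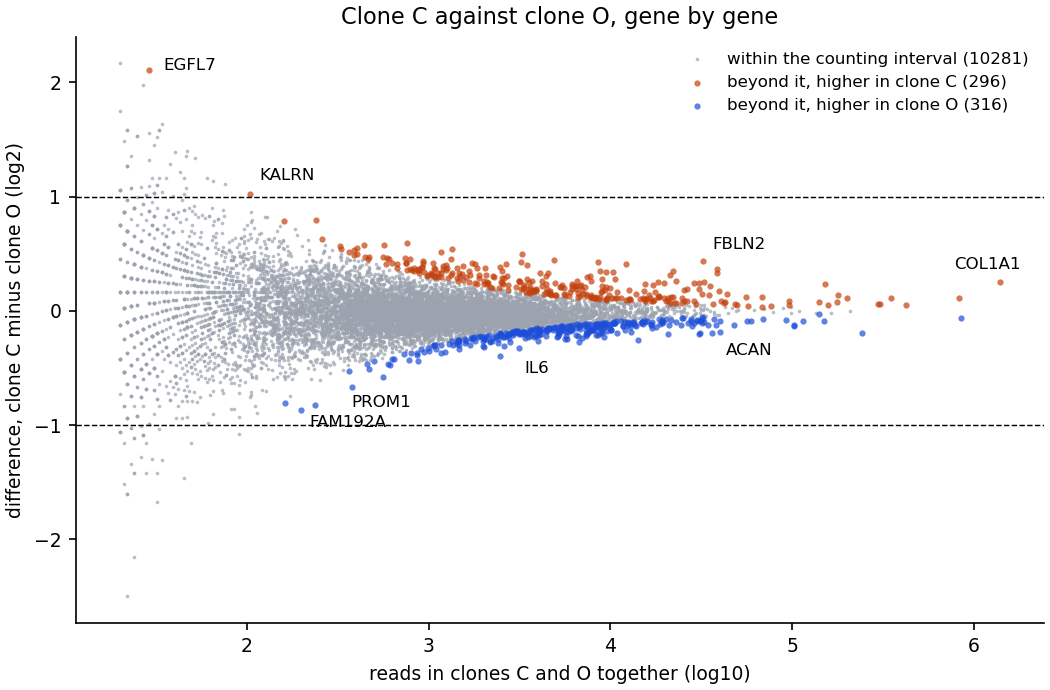
Difference between clone C and clone O on the log2 scale (y axis) against the reads of a gene in both libraries together (x axis, log10), 1 point per gene, grey where the counting interval includes no difference, orange for the 296 genes higher in clone C and blue for the 316 higher in clone O. Dashed lines mark 2-fold, and only EGFL7 and KALRN are called beyond them.

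Among genes with at least 200 reads in the higher library, the 15 with the largest folds towards clone O were AKR1B1, POLQ, PRIM1, PTPN22, XPR1, BMPR1B, RPA2, BLM, RMI1, PPIL4, KIAA1524, CCNE2, NCAPG, DCUN1D5 and GTDC2. POLQ, a DNA polymerase of end joining, had 209 reads in clone C and 350 in clone O (1.49-fold higher in clone O, interval 1.12 to 2.01). BLM, a helicase of recombination repair, had 347 and 529 reads (1.36-fold, 1.08 to 1.71), and NCAPG, a condensin subunit, had 995 and 1464 (1.31-fold, 1.15 to 1.5). The largest fold of the 15 was that of AKR1B1, aldose reductase, with 136 and 242 reads (1.59-fold, 1.11 to 2.28). BMPR1B, a type I receptor for bone morphogenetic proteins with a part in cartilage formation, had 235 reads in clone C and 365 in clone O (1.38-fold, 1.05 to 1.83).

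The 15 with the largest folds towards clone C were WFDC1, PIK3IP1, FBLN1, MMP9, FAM20C, ANGPT2, ZHX2, OLFML2A, CARD10, IGFBP7, C10H14orf37, KLHL22, TBX15, C1QTNF1 and WISP2. WFDC1, a secreted protein with a protease inhibitor domain, led with 436 reads in clone C and 325 in clone O (1.51-fold higher in clone C, interval 1.18 to 1.92). FBLN1, a fibulin of elastic matrix, had 252 and 190 (1.49-fold, 1.08 to 2.06). FAM20C, a kinase of secreted proteins, had 760 and 586 (1.46-fold, 1.21 to 1.75), and IGFBP7, which binds insulin-like growth factors, 1817 and 1444 (1.41-fold, 1.26 to 1.59). In WFDC1, FAM20C and IGFBP7 the pair lay low among the clones, with medians of the other 15 at 65.4, 72.7 and 425 CPM, against 29.5, 51.5 and 123 CPM in clone C and 19.6, 35.4 and 87.2 CPM in clone O. Clone C was thus the less extreme of the pair in each of these. It was the more extreme in FBLN1 (17.1 CPM, 11.5 in clone O, median of the other 15 5.74). The same was true of MMP9 (15.5 CPM, 10.6 in clone O, median of the other 15 3.56).

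Of the 12 tested cartilage matrix genes 4 were called, all higher in clone O, namely MIA, COL2A1, ACAN and COL11A1. With at least 1000 reads 3 of 6 were called. The median log2 difference over the list was -0.12, against -0.01 over all genes. Aggrecan (ACAN) had 17716 reads in clone C and 22594 in clone O, or 1200.5 and 1365 CPM, a 1.14-fold difference in favour of clone O (interval 1.10 to 1.18). The other 15 clones ran from 18.5 to 2735 CPM with a median of 114, so that 2 of them, clones N and Q, lay above clone C and only 1 above clone O. Type II collagen (COL2A1), the main fibril of cartilage, had 15794 and 20245 reads (1.14-fold higher in clone O, 1.10 to 1.18). At 1070 and 1223 CPM both clones lay above every other clone, of which the highest had 641 CPM and the median was 58.1. COL9A2, a chain of the type IX collagen that decorates those fibrils, had 420 and 580 reads, with 28.5 and 35.0 CPM against at most 8.98 CPM elsewhere, and its difference between the pair was within counting error (1.23-fold, 0.996 to 1.52). SOX9, the transcription factor that drives both collagen and aggrecan genes, had 274 and 380 reads, also within counting error (1.24-fold, 0.951 to 1.61). The pair was not high in every cartilage gene. In COL11A1, a chain of the type XI collagen of cartilage fibrils, 5 other clones lay above clone C and 4 above clone O, and in the link protein HAPLN1 3 lay above both. COMP (14 and 12 reads) and PRG4 (10 and 9 reads), both prominent in other clones, were barely detected in this pair.

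Among enzymes that make and sulfate glycosaminoglycan chains, 4 of 38 were called (10.5%, against 5.62% of all genes), 3 higher in clone O and 1 in clone C. With at least 1000 reads 4 of 25 were called, against 11.6%. PAPSS2, which makes the sulfate donor for all such chains, was at 258.5 CPM in clone C and 296.2 CPM in clone O, against at most 87.7 CPM in any other clone, and was 1.15-fold higher in clone O (interval 1.07 to 1.23). XYLT1, which starts the chains on the core protein, had 387 and 439 CPM, above the 356 CPM of the highest other clone, and was 1.13-fold higher in clone O (1.07 to 1.20). CHSY1, which extends chondroitin, was 1.12-fold higher in clone O (1.04 to 1.21). EXT2, of the heparan sulfate branch, was 1.11-fold higher in clone C (1.03 to 1.20). The 4-O-sulfotransferases of chondroitin CHST11 (40.9 and 43.2 CPM) and CHST12 (35.0 and 41.5 CPM) and the dermatan sulfotransferase CHST14 (80.7 and 87.3 CPM) did not differ beyond counting error within the pair, although all 3 lay above every other clone in both.

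The DNA replication and mitosis genes were higher in clone O wherever they were called. Of 51 tested, 50 had a difference in favour of clone O and 22 were called (43.1%), 22 of them higher in clone O and 0 in clone C. The median log2 difference was -0.18 against -0.01 over all genes, and with at least 1000 reads 21 of 41 were called. RRM2, the regulatory subunit of ribonucleotide reductase, had 6064 reads in clone C and 8101 in clone O (1.19-fold higher in clone O, interval 1.13 to 1.26). TOP2A, the topoisomerase that untangles chromosomes, had 3022 and 3992 (1.18-fold, 1.09 to 1.28), and MKI67, the gene of the Ki-67 proliferation antigen, 7928 and 9834 (1.11-fold, 1.05 to 1.16). Cyclin E2 (CCNE2), with 257 and 385 reads, showed the largest fold of the list (1.34-fold, 1.02 to 1.75). Both clones were high in this list to begin with. Summed over the list, clone C had 5775 CPM and clone O 6502 CPM, against a median of 1196 and a range of 601 to 5941 CPM over the other clones. In MKI67 clone L alone lay above clone C (537 CPM), and no other clone above clone O (594 CPM).

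Calls among glycolytic genes had the same direction. Of 36 tested genes of glycolysis and the hypoxia response, 9 were called (25%), all higher in clone O, with a median log2 difference of -0.04, and with at least 1000 reads 9 of 25. SLC16A3, a lactate exporter, was 1.16-fold higher in clone O (interval 1.01 to 1.32, 1088 and 1414 reads) and LDHA, lactate dehydrogenase A, 1.13-fold (1.04 to 1.24). ENO1, enolase, was only 1.06-fold higher (1.03 to 1.08) yet was called on 42333 and 50145 reads. GAPDH, a glycolytic enzyme often taken as a reference, had 1 read in clone C and 7 in clone O, at most 12 in any clone, and was not compared. The study counted GAPDH transcripts by RNA FISH in bovine MSCs, so these reads are not taken as low expression. Why they are few was not tested.

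Genes of the fibroblast matrix were called in both directions. Of 31 tested genes of elastic and adhesive matrix, 10 were higher in clone C and 5 higher in clone O, with a median log2 difference of 0.03 and summed levels of 65988 and 66039 CPM. With at least 1000 reads 14 of 23 were called. Fibulin-2 (FBLN2) had 17735 reads in clone C and 14663 in clone O (1.36-fold higher in clone C, interval 1.31 to 1.41), elastin (ELN) 6600 and 5577 (1.33-fold, 1.25 to 1.41) and LTBP4, which tethers latent TGFβ, 946 and 793 (1.34-fold, 1.14 to 1.57). Fibronectin (FN1) went the other way, 1.05-fold higher in clone O (1.04 to 1.05), as did periostin (POSTN, 1.18-fold, 1.08 to 1.29). Among the collagens, COL1A1 was 1.19-fold higher in clone C (1.18 to 1.20) on 713240 and 672882 reads and COL3A1 1.18-fold (1.16 to 1.20). In that list 6 of 23 genes were higher in clone C and 2, COL8A1 and COL15A1, in clone O. All 8 had at least 1000 reads, as did 14 of the list, and the median log2 difference was 0.05.

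Of the proteoglycans apart from aggrecan, 7 of 21 were higher in clone C and 1 in clone O, and with at least 1000 reads 7 of 16 were called. Biglycan (BGN), a small proteoglycan bound to collagen fibrils, had 20651 reads in clone C and 17954 in clone O (1.29-fold higher in clone C, interval 1.25 to 1.33). Asporin (ASPN) and decorin (DCN), of the same family, were 1.14-fold (1.05 to 1.24) and 1.08-fold (1.04 to 1.13) higher in clone C. The gene higher in clone O was CSPG4, a membrane proteoglycan (1.06-fold, 1.02 to 1.10). Set beside aggrecan, which was 1.14-fold higher in clone O, the core proteins of the matrix did not share a direction between these clones.

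Contractile genes, which mark smooth muscle and myofibroblasts, were called in 8 of 26 cases, all higher in clone C (8 of 21 with at least 1000 reads). ACTA2, smooth muscle actin, had 20277 reads in clone C and 18100 in clone O (1.26-fold higher in clone C, interval 1.22 to 1.30), and the light chain gene MYL9 was 1.22-fold higher (1.14 to 1.30). Genes in a list of FGF, PDGF, IGF and other growth factor signalling were called in 12 of 38 cases, 10 of them higher in clone C (11 of 21 with at least 1000 reads). They included 5 binding proteins of insulin-like growth factors, IGFBP2 (1.36-fold, 1.24 to 1.5), IGFBP3, IGFBP4 (1.19-fold, 1.14 to 1.25), IGFBP6 (1.20-fold, 1.10 to 1.30) and IGFBP7. The receptor MET was higher in clone O (1.20-fold, 1.08 to 1.34). Of 32 genes of the ATF4 amino-acid response, 7 were called, all higher in clone C (7 of 25 with at least 1000 reads), with the stress gene NUPR1 at 1.30-fold (1.12 to 1.5).

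**Figure D3:**
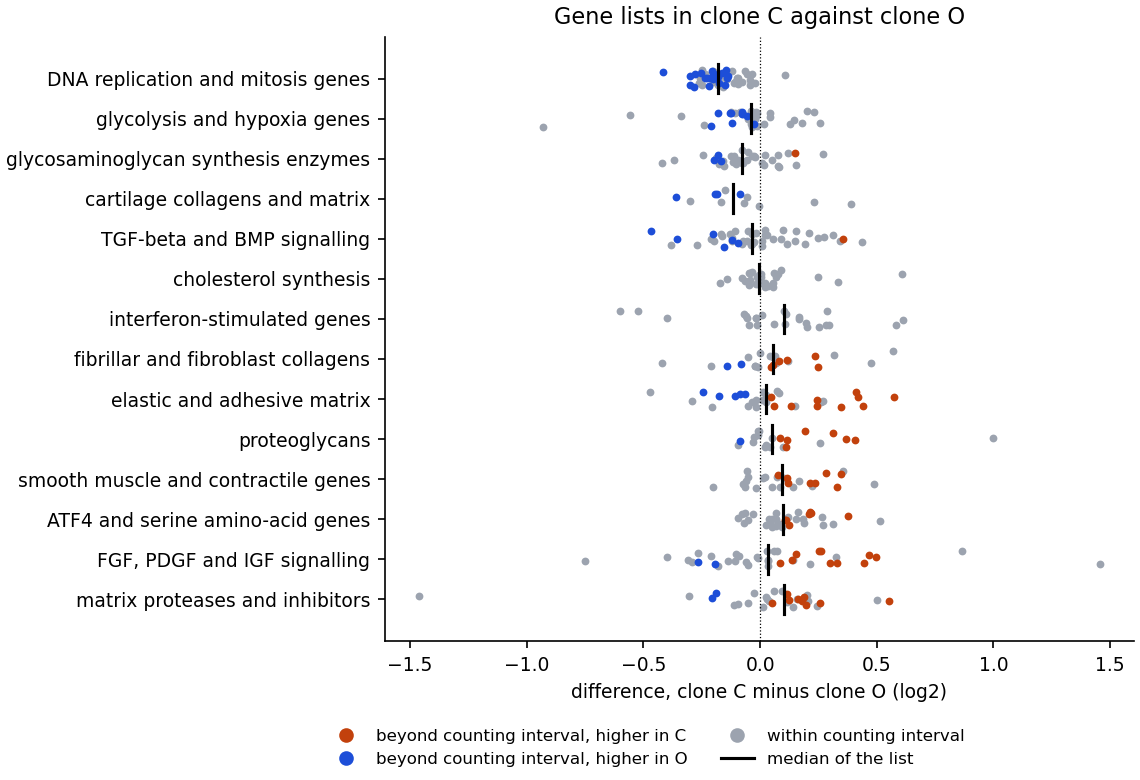
Difference between clone C and clone O on the log2 scale (x axis) for the tested members of 14 gene lists (y axis), 1 point per gene, orange or blue where the counting interval excludes no difference (higher in C or in O) and grey otherwise, with the median of each list as a black bar. Replication and glycolysis genes hold only blue calls (22 and 9), whereas contractile and ATF4 genes hold only orange calls (8 and 7).

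Proteases and their inhibitors were called in 11 of 30 cases, 9 higher in clone C (10 of 16 with at least 1000 reads). TIMP3, an inhibitor of aggrecanases and metalloproteinases that stays bound in the matrix, had 16927 reads in clone C and 15909 in clone O (1.19-fold higher in clone C, interval 1.15 to 1.24). MMP9, a gelatinase, had 229 reads in clone C and 175 in clone O (1.47-fold higher in clone C, 1.05 to 2.06). At 15.5 and 10.6 CPM it was above every other clone (at most 8.16 CPM) and far under the 690 CPM of the heterogeneous population, whose scaling came from all 18 libraries. Macrophages also make MMP9. Of the 5 tested macrophage genes 0 were called, 4 had a difference in favour of clone C, and their median log2 difference was 0.15. MRC1, a macrophage lectin, was the 1 gene of that list above all other clones in both, at 2.98 and 2.90 CPM against at most 1.97 CPM. The whole list summed to 24.7 and 22.5 CPM, under the median of 37.6 CPM of the other clones. Whether such cells account for the MMP9 reads was not tested.

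TGFβ and BMP signalling genes were called in 7 of 45 cases, 6 higher in clone O (5 of 25 with at least 1000 reads). TGFB2, a ligand, had 507 reads in clone C and 728 in clone O (1.28-fold higher in clone O, interval 1.06 to 1.55), TGFB1 was 1.11-fold higher (1.03 to 1.21), and INHBA, which encodes activin A, 1.15-fold (1.07 to 1.24). The BMP antagonist GREM1 was 1.09-fold higher in clone O (1.06 to 1.12). SMAD6, an inhibitor within the BMP pathway, was the gene higher in clone C (1.28-fold, 1.01 to 1.63). In the Wnt list 4 of 30 genes were called, all higher in clone C (4 of 11 with at least 1000 reads), among them the secreted DKK3 and the receptors FZD1 and FZD8.

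Some lists showed little or nothing within the pair. Cholesterol synthesis had 0 of 29 genes called although 25 of them had at least 1000 reads, and its median log2 difference was -0.0035. Of 25 interferon-stimulated genes 0 were called, but only 4 of these had at least 1000 reads. Cytosolic ribosomal protein genes were called in 3 of 52 cases. The 43 HOX and limb patterning genes, which keep a record of where in the body a cell arose, held 2 calls, TBX15 and PRRX2. That is 4.65%, against 5.62% of all genes. No HOX gene was called, but only 8 of the 43 genes had at least 1000 reads.

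The small differences had a common orientation towards the other clones. Of the 612 called genes, clone C lay on the side of the median of the other 15 clones, seen from clone O, in 569 (93.0%). This held for 268 of the 296 genes higher in clone C and for 301 of the 316 higher in clone O. The level of clone O enters both the call and the side, which by itself can raise these shares. The same share over all tested genes was not taken. A gene also counted where clone C lay past the median, as in PPIL4 (21.1 CPM, against 28.4 CPM in clone O and a median of 27.0 CPM). Clone O lay outside the range of the other 15 clones while clone C lay inside it in 110 of the 612 genes, and the converse was true of 4. In 109 genes both were outside, and in 389 both were inside. Over 11459 genes, called or not, clone O lay above all of the other 15 in 13.7% and below all in 9.07%. Clone C did so in 9.95% and 8.01%, so clone O was more often outside without the calls too. These shares include genes with both outside. Calling genes by the difference between C and O can also favour those with only C or only O outside. Genes called between C and O also varied more among the other 15 clones, which took no part in choosing them. Their median SD was 0.44 log2 units against 0.30 over all tested genes, and with at least 1000 reads 0.43 against 0.25.

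The orientation was also seen without the calls. There were 238 genes with at least 1000 reads in each library in which clone O was at least 2-fold from the median of the other clones, and in 232 of them (97.5%) clone C was nearer to that median. Clone C covered a median of 8.82% of the log2 distance from clone O to the median (quartiles 5.39% and 11.9%). Choosing genes by clone O could by itself place clone C nearer, so the choice was also made by clone C, which gave 181 of 189 genes (95.8%) with a median of 7.67%, and by the mean of both, which gave 205 of 212 (96.7%). COL2A1, ACAN, RRM2 and IL6 stood at the end where clone O was far above the other clones, and IGFBP7 at the end where it was far below. As a description across genes of 2 libraries this has no replicate error, and its cause was not tested. A shift common to all genes and separate differences in single lists cannot be told apart here, so the list counts given above are not independent of this orientation or of each other.

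**Figure D4:**
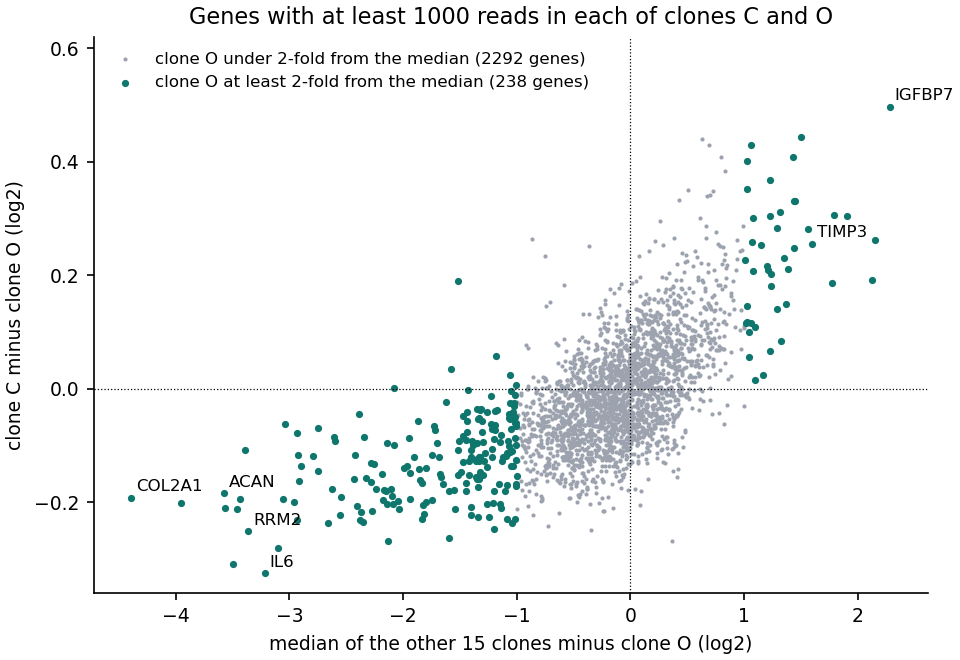
Clone C minus clone O on the log2 scale (y axis) against the median of the other 15 clones minus clone O (x axis, log2), for the 2530 genes with at least 1000 reads in each of clones C and O, with the 238 genes in which clone O was at least 2-fold from that median in green and the others in grey. Green points lie below 0 where clone O exceeded the other clones and above 0 where it fell short of them, in 232 of 238 genes.

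The traits that clones C and O shared against the rest were many and far larger than the differences between them. Of 11459 genes with at least 1 CPM in at least 1 clone, both lay above all other 15 clones in 1012 genes (8.83%), and both lay lower than every one of the 15 in 571 (4.98%). The pair's mean was at least 2-fold from the median of the others in 350 and 106 of these. Compared with the other 15 whatever the level of clone O, clone C lay above all 15 in 1140 genes and below in 918. Clone O, whatever the level of clone C, did so in 1574 and 1039. These counts include the genes in which both lay outside. Where both were above, clone O was the further out in 789 of 1012 genes (78.0%), and where both were below, in 338 of 571 (59.2%). Since the pair was chosen for being alike, these counts are a description and not a test. Fewer cells expressing a gene and less RNA per cell cannot be told apart in such bulk libraries.

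Urokinase receptor (PLAUR), which gathers proteolysis at the cell surface, had the most reads of the 12 genes with the widest gaps above the other clones. It had 13370 reads in clone C and 17256 in clone O, or 906 and 1042 CPM, against a median of 66.8 and a maximum of 241 CPM in the other clones. IGSF9B, a neuronal adhesion protein, had the widest gap of all, with 46.4 and 54.9 CPM against a median of 0.495 and at most 5.44 CPM. NPTXR, a pentraxin receptor, had 95 and 108.8 CPM against at most 20.4 CPM, and S100A2, a calcium-binding protein, 130.8 and 139.5 CPM against at most 42.3 CPM. The cytokine LIF had 30.9 and 35.6 CPM against at most 9.71 CPM. GATA4, a transcription factor of heart and gonad, had 206 reads in clone C and 264 in clone O, or 14 and 15.9 CPM, with a median of 0.179 CPM elsewhere. COL13A1, a membrane collagen, stood at 14 and 13.3 CPM against at most 3.07 CPM. In TMEM200C, COL13A1, LIF, COL9A2, S100A2 and GATA4, the counting interval of the difference within the pair included 1.

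Fewer genes stood far below. TIMP3 was at 1147 CPM in clone C and 961 CPM in clone O, where the other clones ran from 1706 to 4275 CPM. Follistatin (FST), which binds activins, was at 16.8 and 15.5 CPM against a lowest other value of 25.8 and a median of 54.4 CPM. SEMA3A, a secreted guidance cue, was at 11 and 8.34 CPM against at least 19.1 CPM. MARVELD2, a tight junction protein, had only 35 and 36 reads and was at 2.37 and 2.17 CPM against at least 4.65 CPM. LIMA1, which bundles actin, was at 217 and 214 CPM against at least 316 CPM. TIMP3 was the only gene among the 12 with the widest gaps below that also differed beyond counting error within the pair.

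**Figure D5:**
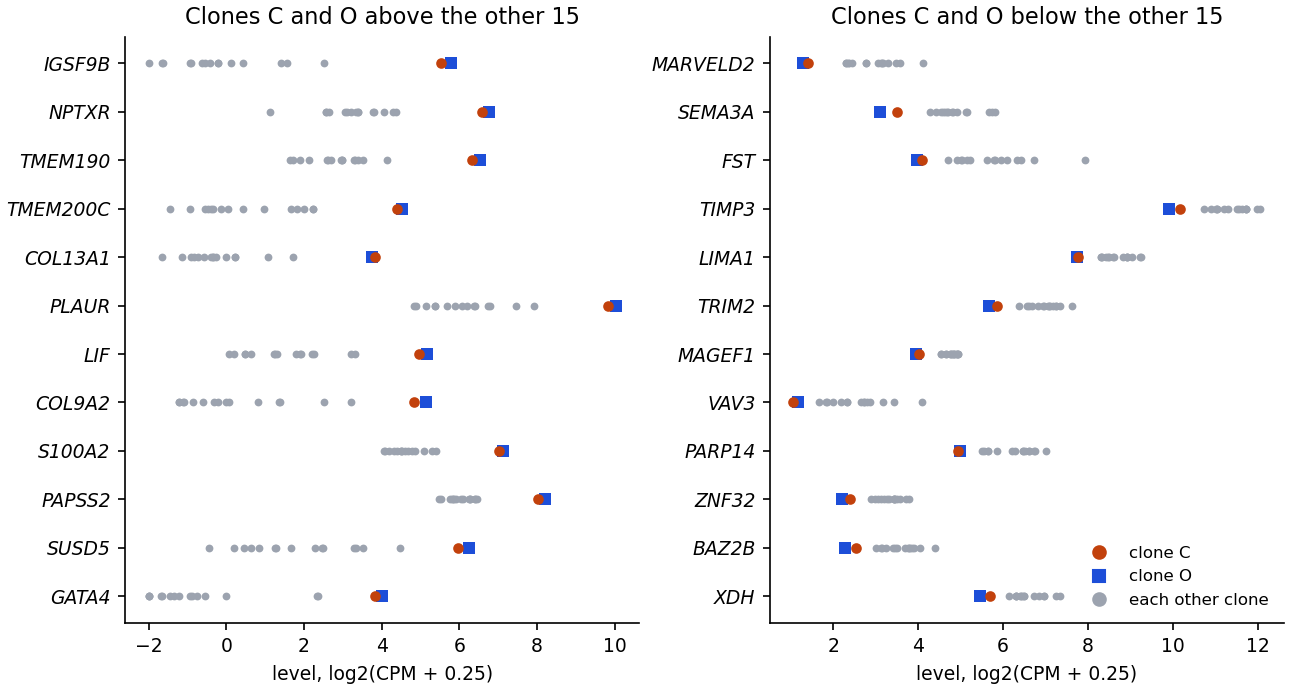
Levels as log2(CPM + 0.25) (x axis) of the 12 genes with the widest gap above (left) and the 12 below (right) the other 15 clones (y axis), with clone C as orange circles, clone O as blue squares and each other clone as a grey point. The markers of clones C and O lie closer to each other than to any grey point, as in PLAUR at 906 and 1042 CPM, and no grey point lies between them and the end of the axis on their side.

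Some lists held more genes beyond the other clones than the 8.83% above and 4.98% below found over all genes. Both clones were above all others in 17 of 51 replication and mitosis genes, among them UBE2C (160 and 173 CPM against at most 98.1 CPM) and PLK1 (115 and 121 CPM against at most 77.0 CPM), and below all others in 0. They were above in 12 of 36 glycolysis and hypoxia genes, such as the glucose transporter SLC2A1 (173 and 182 CPM against at most 142 CPM) and phosphofructokinase PFKL (496 and 510 CPM against at most 407 CPM), and in 13 of 39 genes of glycosaminoglycan synthesis. Cholesterol synthesis, which did not separate the pair, also stood high, with both above in 8 of 29 genes, including the fatty acid synthase FASN (775 and 757 CPM against at most 617 CPM). In the cytokine list both were above in 7 of 30 genes. IL6, an inflammatory cytokine, had 88.2 and 110.7 CPM against at most 39.3 CPM, and it was also the 1 gene of that list called between the clones (1.25-fold higher in clone O, interval 1.11 to 1.41).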

How the data were processed

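Poly-adenylated RNA of passage 1 cells was read from a single end by the authors, aligned to bosTau7 with STAR 2.3.0e and counted with HTSeq on RefSeq genes. The deposited values are raw counts of reads per gene, without normalization, for 16989 gene symbols. A table of the whole series repeats them (0 of 305802 values differ). Tally lines naming no gene stayed out of library sizes.

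TMM factors came from edgeR 4.0.16 over the 17 clones (R 4.3.3), and DESeq2 1.42.0 size factors and library totals were alternatives. No count test was run, since there was 1 library a side and the pair was chosen on expression. A gene differed beyond counting error where the exact (Clopper-Pearson) 99.9% interval of the ratio of reads excluded 1, with at least 20 reads over the pair. SDs and gaps used log2(CPM + 0.25). Intervals came from scipy 1.17.1 under Python 3.11.15, tables from pandas 2.3.3 with numpy 2.4.6, and plots from matplotlib 3.10.9. The calls were tested on simulated reads with counting error only, which is the error that the interval assumes. That test therefore does not cover other spread between libraries.

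Named genes were to be the 15 per direction with the largest fold among those 2-fold apart with at least 200 reads. There were none, so the minimum fold was dropped after the values were seen. Others are the 12 per direction with the widest gap to the other clones, ACAN, and called members of 38 gene lists; further list members were named after their values were seen. The members and lists were chosen with earlier results of these data known. The library kit named in the labels does not mark strand, so overlapping genes on opposite strands cannot be told apart. Gene length and GC content were not analysed here, so levels are not compared between genes. No sequence is shown. A few genes of these lists are not reported here by name.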

Additional observations from a re-analysis of the deposited data

How the results depend on the processing

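The count of genes 2-fold apart between clones C and O was 1 with at least 100 reads or at least 3-fold, 10 with at least 1.5-fold and 47 with a 95% interval. With that interval 2116 genes were beyond counting error, 900 higher in clone C and 1216 in clone O. Library totals gave 637 such genes, 248 higher in clone C and 389 in clone O, and DESeq2 size factors gave 591, 302 and 289, so that the larger side changed. Of the 612 genes, 564 and 585 were called in the same direction under these scalings, which shifted all differences by -0.01 and 0.00 log2 units. Of the named and list genes, 11 lost their call under library totals and 5 under DESeq2 factors. Another 208 and 215 kept their status, whether called or not called, and 0 called genes reversed. Of the rest, 1 gene, COL9A2, was called only under totals. Whatever the level of its partner, clone O lay outside the other 15 clones in 2613 genes (1574 above, 1039 below) and clone C below in 918. These counts include the genes with both outside, and both settings were added after seeing the data. With each other clone left out the count of genes with both outside ran from 1588 to 2115 (1016 to 1281 above, 572 to 834 below), the highest without clone G. Library totals gave 1305. No paired analysis was possible because each clone has 1 library. Depth limits the rest: from 20 to under 100 reads the interval typically reached 1.49 log2 units above the estimate.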

Other observations

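Immediate early genes, which respond to handling and serum within minutes to hours, were divided between the clones. FOSB had 498 reads in clone C and 442 in clone O (1.26-fold higher in clone C, counting interval 1.02 to 1.57), and EGR1 was 1.18-fold higher there (1.08 to 1.28). IER3 went the other way, with 3181 and 4160 reads (1.17-fold higher in clone O, 1.08 to 1.26), and it lay above every other clone in both. Of the 25 genes tested in that list 4 were higher in clone C and 2 in clone O.

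Metallothionein MT2A, which binds zinc and copper, had 73.7 CPM in clone C and 91.4 CPM in clone O against at most 30.4 CPM in the other clones. PARP14, an interferon-stimulated gene, was at 30.4 and 31.5 CPM against at least 44.7 CPM elsewhere, and 4 of 29 interferon-stimulated genes were below all others in both clones and 1 above, where 4.98% and 8.83% of all genes were. Of 45 HOX and limb patterning genes, 4 were below every other clone in both and 0 above, against the same shares of all genes. HOXC6, SHOX2 and HOXA13 were among the 4, at low levels of 3.46, 8.0 and 2.78 CPM in clone C and 2.48, 6.76 and 2.66 CPM in clone O.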
